A study of Drosophila melanogaster with 10 samples.

Results

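The polyadenylated RNA of transposable element (TE) families was set beside their RNA polymerase II (Pol II) occupancy in control Drosophila melanogaster ovarian somatic cells (OSC), a cultured line from the somatic cells of the ovary. Control cells had been transfected once with an siRNA against EGFP, grown at 26 °C and collected after 2 days. A single library per assay was available: poly(A) RNA, and chromatin sheared to 200 bp and immunoprecipitated with the Pol II antibody 8WG16. The control pair makes up 2 of the 10 libraries of the study. The other 8 come from cells transfected with siRNAs against Piwi, Armi, Mael, CG3893 or HP1a for RNA, and against Piwi, Mael or CG3893 for Pol II, under the same growth conditions. Of 177 deposited TE entries, joined between the assays by name, 151 had reads in at least 1 of the control libraries and make up the ranks below. Reads were found in both assays for 140 of these entries, in RNA alone for 6 and in Pol II alone for 5, and 26 entries had none in either. Among the 151 entries, 132 could be placed in 7 TE classes by name, while 19 were satellites, short repeats or other names in no TE list.

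TEs are mobile DNA families present in many copies. LTR retrotransposons (Ty3/gypsy, copia and Bel/Pao types, with the errantiviruses as the retrovirus-like branch of the gypsy type) and non-LTR retrotransposons move through an RNA copy, made by Pol II for most families, whereas DNA transposons move as DNA. R1 and R2 are known exceptions: they sit in the large ribosomal RNA genes and are transcribed together with them by Pol I. In the follicle lineage, Piwi loaded with piRNAs acts in the nucleus on TE transcripts as they are made, with Mael, CG3893 and HP1a among the factors of transcriptional silencing and Armi needed to make the piRNAs. The control cells therefore hold this pathway intact. Antibody 8WG16 binds the repeated tail of the largest Pol II subunit, with a preference for its poorly phosphorylated form, which is typical of polymerase near promoters.

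With 1 library per group, differences could not be checked against replicates and no p-value is given. Intervals are 95% exact intervals on recovered reads and cover counting error only. RNA was given as RPKM, reads scaled by the length of the entry and by the library total, and Pol II as RPM, scaled by the library total with no length term. No chromatin input was used here. The number of genomic copies of a family, the Pol II on each copy and background reads therefore cannot be told apart. In the same way, fewer expressing cells and less RNA per cell cannot be told apart in these bulk samples. The control RNA library held 33872728 reads and the control Pol II library 4114686. The label of the cells was checked in RNA against 8 genes expected in ovarian somatic cells. They lay between 23.5 RPKM for hh and 576 RPKM for piwi. Of these, piwi and armi (469 RPKM) are not limited to somatic cells. The highest of the rest was the follicle factor tj, at 195 RPKM. The 8 germline markers lay between 0 RPKM for otu and 1.56 RPKM for vas. In the knock-down libraries the targeted genes stood at 10.3% of control for mael to 48.4% for CG3893.

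TE entries took a similar part of both control libraries, 7.49% of RNA reads (2535895 reads) and 8.52% of Pol II reads (350631 reads), but the reads were spread over the families very differently. COPIA, the namesake of the copia type, and Gypsy1, a Ty3/gypsy-type element, together held 82.4% of the TE reads in RNA. COPIA took 43.3% of them (43.2 to 43.4) and Gypsy1 39.1% (39.1 to 39.2). In Pol II, Gypsy1 alone took 44.6% of the TE reads (44.4 to 44.7) while COPIA took 3.11% (3.06 to 3.17). After Gypsy1 the Pol II order was flat: the errantivirus GYPSY held 4.45%, the ribosomal DNA element R1 3.48%, the LINE-type element FW 2.68% and the Bel/Pao-type element ROO 2.65%. To reach 90% of the TE reads took 7 entries in RNA and 43 in Pol II.

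**Figure D1:**
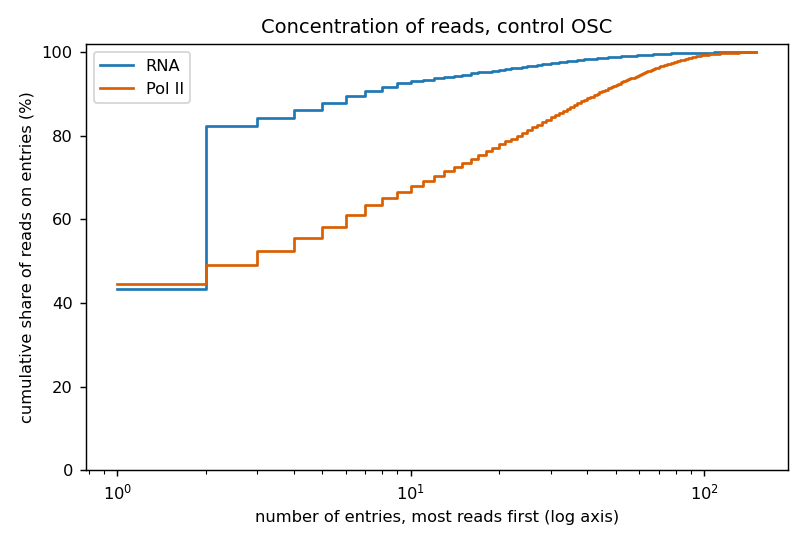
Cumulative share of the TE reads (vertical axis, %) against the number of entries, taken from the one with most reads (horizontal axis, log scale), in the control RNA library and the control Pol II library. The RNA line passes 82.4% at the second entry, where the Pol II line stands at 49.0%.

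Across the 151 entries the ranks of the assays were related but far from equal. Spearman's rho between RNA RPKM and Pol II RPM was 0.54, and Pearson's r of the log2 values, with 1 added in each unit, was 0.51. With Pol II expressed per kilobase, over the 145 entries whose length could be recovered from the RNA values, rho was 0.57 and r was 0.56. These are descriptions over entries that share the same 2 libraries, not replicates. Within an assay the order of families was closer across conditions than it was between assays in the control. Pol II ranks in the control and in each of the 3 knock-downs were related with rho of 0.99 in each case, and RNA ranks with rho of 0.97 for Armi, 0.95 for Piwi, 0.94 for Mael, 0.86 for HP1a and 0.97 for CG3893.

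The relation was present inside each class large enough to describe. Spearman's coefficient was 0.74 in the 32 other Ty3/gypsy-type elements, 0.69 in the 25 DNA transposons and helitrons, 0.68 in the 34 non-LTR elements and 0.63 in the 22 errantiviruses. It was 0.79 in the 8 Bel/Pao-type and 0.83 in the 6 copia-type elements. In the 19 entries of no TE list it was -0.26. Most TE classes thus ordered their members alike in the assays, and the entries of no list did not.

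**Figure D2:**
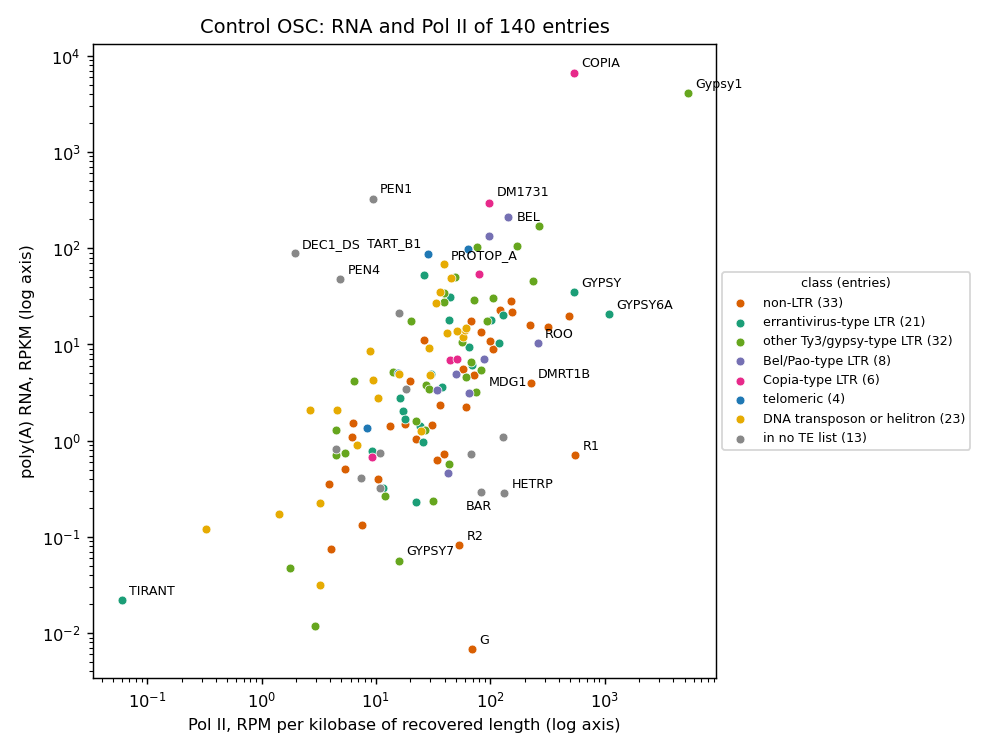
RNA (RPKM, log axis) against Pol II (RPM per kilobase of recovered length, log axis) for the 140 entries with reads in both control libraries, coloured by class; each point is 1 entry. COPIA and Gypsy1 lie at the top, at 6658 and 4104 RPKM, and R1, G, R2 and HETRP lie far below entries of similar Pol II.

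Size limits were used in place of a test. An entry was called ranked higher in one assay when its percentile among the 151 entries differed by at least 30 points. By this limit 16 entries (10.6%) ranked higher in Pol II and 16 (10.6%) ranked higher in RNA. With Pol II per kilobase the numbers were 14 (9.66% of 145) and 16 (11.0%). Both scales called 9 of the entries higher in Pol II and 12 of those higher in RNA. The other limit used levels: 10 entries (6.62%) had Pol II at or above the median of 100.4 RPM with RNA under 1 RPKM, and 13 entries (8.61%) had RNA of at least 10 RPKM with Pol II under that median.

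**Figure D3:**
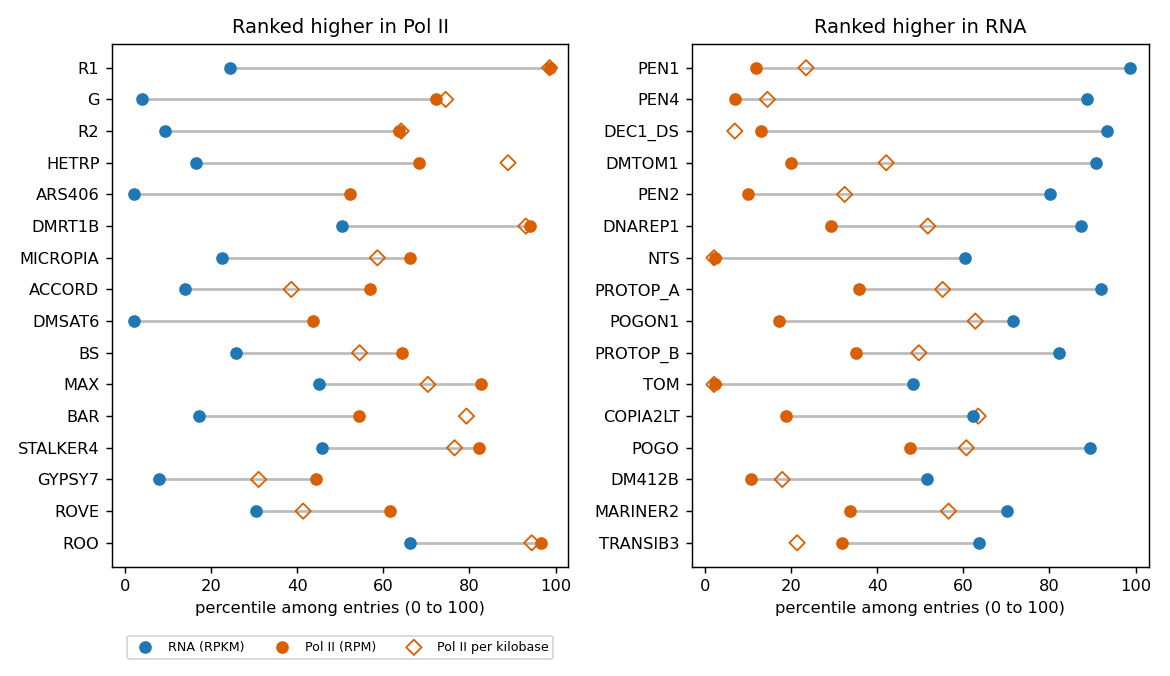
Percentile (0 to 100, horizontal axis) in control RNA (blue), in Pol II as deposited (filled orange) and in Pol II per kilobase (open diamonds, where a length was recovered) for the 16 entries ranked higher in Pol II (left) and the 16 ranked higher in RNA (right). R1, G, R2 and HETRP keep or widen their distance per kilobase, while POGON1, MARINER2 and COPIA2LT lose most of theirs.

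The largest gap towards Pol II belonged to R1, a non-LTR element that inserts at a fixed site of the large ribosomal RNA genes. R1 held 12219 Pol II reads, 2970 RPM or 554 RPM per kilobase, the third highest value on both scales. Its RNA was 0.706 RPKM (0.589 to 0.839), from 128 reads, and stood at rank 115 of 151. The percentile in RNA was thus 74.2 points below that in Pol II, and 77.2 points below it per kilobase. R1 RNA was 1.77 RPKM in Armi, 2.91 in Piwi, 2.69 in Mael, 3.58 in HP1a and 1.64 in CG3893. R1 Pol II was 3764 RPM in CG3893, 3071 in Piwi and 3350 in Mael. Reads of R1 were therefore among the highest in all 4 Pol II libraries, and its poly(A) RNA was under 4 RPKM in all 6 RNA libraries. Without an input these Pol II reads cannot be told from background, and RNA without a poly(A) tail was not measured. The same limits apply to R2.

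R2, another non-LTR element of the ribosomal RNA genes with an insertion site of its own, held 194 RPM of Pol II, or 53.8 RPM per kilobase, and 0.0818 RPKM of RNA from 10 reads (0.0392 to 0.151). The other RNA libraries gave 0.124 RPKM in Armi, 0.053 in Piwi, 0.066 in Mael, 0.313 in HP1a and 0.141 in CG3893. Pol II of R2 was 200.2 RPM in CG3893, 197 in Piwi and 191 in Mael, close to the control value in each. The percentile difference was -54.3 points in the control and -53.6, -52.3 and -50.3 points in Piwi, Mael and CG3893.

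The G element, a LINE of the jockey group, had the least RNA for its Pol II among the 140 entries with reads in both assays. Its 301 RPM of Pol II (285 to 319), 69.3 RPM per kilobase, stood beside 1 RNA read, 0.0068 RPKM (0.000172 to 0.0378). RNA of G was 0.031 RPKM in Armi, 0.031 in Piwi, 0.018 in Mael, 0.631 in HP1a and 0.044 in CG3893. The HP1a value rests on 51 reads, the others on 1 to 6. Pol II of G was 378 RPM in CG3893, 302 in Piwi and 323 in Mael. The HP1a library thus held most of the G reads, and no Pol II library of that knock-down was analysed here.

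Other non-LTR elements ranked higher in Pol II were DMRT1B, an element related to R1, and BS, a jockey-group LINE. With R1, R2 and G this made 5 of the 34 non-LTR entries (14.7%), against 10.6% of all entries. Per kilobase it was 6 of the 33 with a length, against 14 of all 145 (9.66%). DMRT1B held 1169 RPM (226 RPM per kilobase) and 3.95 RPKM, a difference of -43.7 points as deposited and -44.8 per kilobase, and reached 20.7 RPKM in the HP1a library against 3.97 to 5.74 RPKM in the other knock-downs. BS held 202 RPM and 0.726 RPKM, -38.4 points as deposited and -31.7 per kilobase. Its RNA was 0.901 RPKM in Armi, 1.19 in Piwi, 4.39 in Mael, 7.08 in HP1a and 1.59 in CG3893, with Pol II between 202 and 221 RPM throughout.

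Among LTR elements the gap towards Pol II was found in 2 of 8 Bel/Pao-type entries (25%). It was found in 2 of 22 errantivirus-type (9.09%) and 3 of 32 other Ty3/gypsy-type entries (9.38%), near the 10.6% of all entries. Per kilobase the numbers were 1, 0 and 3, where 14 of all 145 entries (9.66%) were called. These include short entries not called as deposited. The Bel/Pao-type entry was NINJA, of 317 bases and 5 control RNA reads. STALKER3, of the other Ty3/gypsy type, had 372 bases and 3 control RNA reads, at -5.96 points as deposited and -37.9 per kilobase. The call was lost per kilobase by ACCORD, at -43.0 points as deposited and -28.3 per kilobase, GYPSY7 (-36.4 and -26.2), MAX (-37.7 and -27.6) and ROVE (-31.1 and -13.8). It was kept by MICROPIA (-43.7 and -39.3) and STALKER4 (-36.4 and -33.1). MICROPIA, of the Ty3/gypsy type, held 216 RPM of Pol II and 0.572 RPKM of RNA. Its RNA stayed between 0.596 and 0.706 RPKM in Piwi, Armi, Mael and CG3893 and was 4.25 RPKM in HP1a. The errantivirus ACCORD held 155 RPM and 0.229 RPKM in the control, between 0.157 and 0.339 RPKM in the piRNA factor knock-downs and 8.82 RPKM in HP1a. GYPSY7, at 83.4 RPM and 0.0564 RPKM in the control, was at 3.62 RPKM in HP1a and at most 0.278 RPKM in the others. For MICROPIA, ACCORD and GYPSY7 the HP1a library was thus the highest of the 6 in RNA, by a wide margin over the next. This was not particular to called entries. FROGGER, at -4.64 points, was at 150 RPKM in HP1a and at most 1.03 elsewhere, and G2, at -20.5 points, at 41.8 and at most 2.87. COPIA, in contrast, was at 6441 RPKM in HP1a and 6658 in the control. How many entries were highest in HP1a was not counted.

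ROO and MAX were the Bel/Pao-type entries of this kind. ROO, among the most numerous TE families of the fly genome, ranked 6 in Pol II with 2261 RPM (260 RPM per kilobase) and 52 in RNA with 10.3 RPKM. The difference of -30.5 points was just inside the limit, and -29.7 per kilobase just outside it. The next entries outside were MDG1 and GYPSY3, at -27.2 points each, and on the opposite side TRANSIB3 at 31.8 was inside and INVADER4 at 29.1 outside.

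ARS406, DMSAT6, HETRP and BAR, in no TE list, also ranked higher in Pol II. These 4 were 21.1% of the 19 entries in no TE list, against 10.6% of all entries. HETRP held 247 RPM, 132 RPM per kilobase, with 18 RNA reads (0.284 RPKM), and its distance was -51.7 points as deposited and -75.9 per kilobase. BAR held 142 RPM with 17 RNA reads, at -37.1 points as deposited and -65.5 per kilobase. ARS406 and DMSAT6 held 113 and 81.7 RPM with 0 RNA reads in the control. No length was used for either, as both had reads in fewer than 4 RNA libraries, so they have no value per kilobase.

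The opposite group, ranked higher in RNA, was made of shorter entries. Their recovered lengths had a median of 582.5 bases, and 10 of 16 were under 1000 bases, against a median of 5209 bases and 0 of 14 in the group ranked higher in Pol II. Of all 145 entries with a length, 124 had at least 1000 bases, and the median was 4532 bases. Over the 145 entries with a length, rho between length and the percentile difference was -0.53, and -0.21 with Pol II per kilobase, as Pol II RPM itself rose with length (rho of 0.63) and RNA RPKM hardly did (0.14). Length therefore moves with the deposited ranks.

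PEN1, PEN4 and DEC1_DS, in no TE list, had the widest differences of this group. PEN1 held 326 RPKM of RNA, the third highest value, beside 18 Pol II reads (4.37 RPM, or 9.41 RPM per kilobase). Its RNA was 283 RPKM in Armi, 294 in Piwi, 254 in Mael, 277 in HP1a and 275 in CG3893, and its Pol II 4.61, 3.92 and 3.32 RPM in Piwi, Mael and CG3893. The difference was 86.8 points in the control and 75.2 per kilobase, and that of PEN4 81.8 and 73.8. DEC1_DS, at 2370 bases longer than PEN1 (465 bases) and PEN4 (150 bases), held 88.3 RPKM of RNA and 4.62 RPM of Pol II, 80.5 points as deposited and 86.2 per kilobase. Entries outside the TE classes made up 5 of the 16, which is 26.3% of the 19 such entries, against 10.6% of all entries. They were also frequent on the opposite side, where 4 of the 19 (21.1%) ranked higher in Pol II. Per kilobase, 5 of the 15 with a length ranked higher in RNA and 4 in Pol II.

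DNA transposons and helitrons supplied 7 of the 16 entries, which is 28% of the 25 in that class against 10.6% of all entries. None of the 25 ranked higher in Pol II. Per kilobase, 5 of the 24 with a length ranked higher in RNA, against 16 of all 145 (11.0%). The class had a median length of 1743 bases, against 4532 over all entries. DNAREP1, a short helitron also known as INE-1, held 34.7 RPKM of RNA (32.2 to 37.4) and 21.4 RPM of Pol II (17.2 to 26.3), 58.3 points and 35.2 per kilobase. Its RNA was 36.1 RPKM in Armi, 39.5 in Piwi, 45.7 in Mael, 37.2 in HP1a and 37.4 in CG3893, with 17.6, 17.2 and 17.1 RPM of Pol II in Piwi, Mael and CG3893. PROTOP_A and PROTOP_B, related to the P element, held 68.4 and 27.3 RPKM beside 43.5 and 38.9 RPM, with 56.3 and 47.0 points as deposited and 36.6 and 31.7 per kilobase. POGO, a transposon of the Tc1/mariner group, held 48.8 RPKM and 96.0 RPM, 41.7 points and 28.3 per kilobase. POGON1, its short relative of 186 bases, went from 54.3 points as deposited to 7.59 per kilobase, and MARINER2 from 36.4 to 12.4, so their place in this group depends on the length term. TRANSIB3, at 2883 bases the longest of these, went from 31.8 to 40.7 points.

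TOM, an errantivirus first known from another Drosophila species, and NTS, in no TE list, had RNA but 0 Pol II reads in all 4 Pol II libraries. A count of 0 in the control allows up to 0.729 RPM. TOM RNA was 3.47 RPKM in the control, 4.40 in Armi, 3.51 in Piwi, 1.20 in Mael, 4.51 in HP1a and 2.81 in CG3893. DMTOM1, an errantivirus entry of 410 bases, held 52.8 RPKM of RNA beside 10.7 RPM of Pol II, 70.9 points and 48.3 per kilobase.

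The ratio of RNA RPM to Pol II RPM needs no length, as both numbers count reads on the same entry. Its zero point has no meaning of its own, so it is used here to order entries. The median over 140 entries was 0.138, with 15 entries at 1 or above and 10 under 0.01. Entries in no TE list had the highest ratios, DEC1_DS at 45.3 and PEN1 at 34.6, and PEN4 stood at 9.76. These rest on 19, 18 and 3 Pol II reads. The highest TE family was COPIA at 12.2 (12.0 to 12.5). Next among TE families came TART_B1, a retrotransposon that maintains telomeres, at 3.05 (2.88 to 3.23) and the copia-type element DM1731 at 3.04 (2.89 to 3.19). The last 2 intervals overlap, so their order is not settled even by counting error. Gypsy1, with far more Pol II than any other entry, had a ratio of 0.771 (0.767 to 0.775). At the lower end were G at 9.8e-05, R1 at 0.00127 (0.00106 to 0.00151), R2 at 0.00152 (0.000727 to 0.00281) and HETRP, in no TE list, at 0.00215 (0.00127 to 0.00341). The intervals of R1, R2 and HETRP overlap each other.

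**Figure D4:**
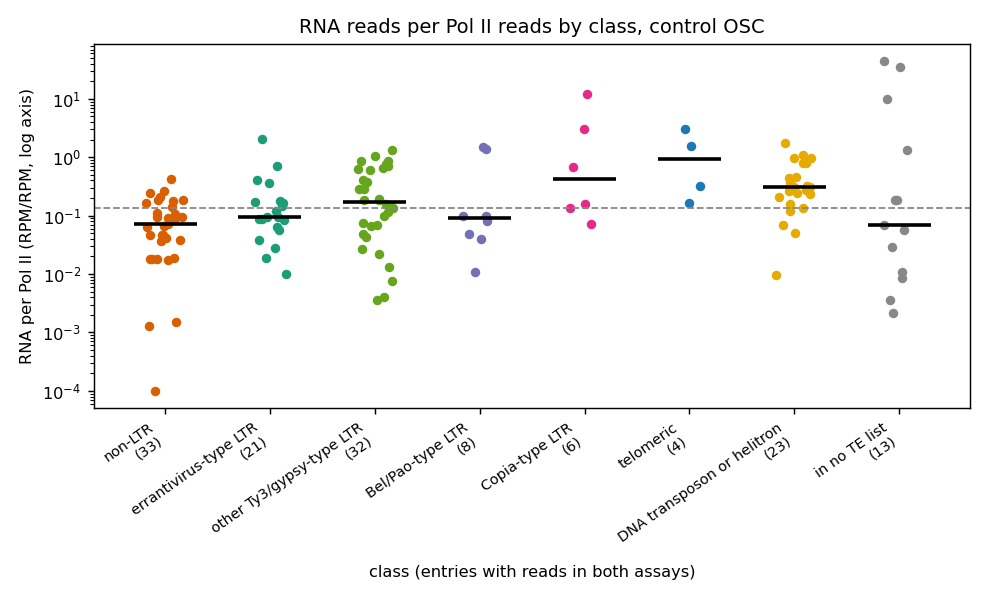
Ratio of RNA RPM to Pol II RPM (log axis) in the control for the 140 entries with reads in both assays, by class; each point is 1 entry, black bars are class medians and the dashed line is the median of all entries, 0.138. Among TE classes the medians run from 0.0723 in non-LTR elements to 0.939 in the 4 telomeric entries; the 13 entries in no TE list have 0.0683.

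By class, the ratio had its lowest TE median in non-LTR elements, at 0.0723 over 33 entries, of which 24 were under the median of all entries. Medians were 0.0899 in Bel/Pao-type, 0.0956 in errantivirus-type, 0.173 in other Ty3/gypsy-type, 0.308 in DNA transposons and helitrons, 0.42 in copia-type and 0.939 in telomeric entries. Non-LTR elements held 17.8% of the TE reads in Pol II and 1.36% in RNA, with R1 holding 12219 of their 62369 Pol II reads. The RNA share was also the lower in errantivirus-type (11.4% and 1.62%) and Bel/Pao-type entries (6.34% and 2.98%). The same held for other Ty3/gypsy-type entries (56.6% and 44.3%) and DNA transposons and helitrons (1.14% and 0.586%). It was the higher in copia-type (4.27% and 45.4%) and telomeric entries (1.65% and 3.21%). No non-LTR entry reached a ratio of 1: the highest was G5A, at 0.422. Classes overlapped widely, for example within the copia type from 0.0726 for FROGGER to 12.2 for COPIA, and in the Bel/Pao type from 0.0108 for NINJA to 1.49 for BEL.

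The telomeric retrotransposons differed among themselves. TART and TART_B1 held 98.9 and 87.1 RPKM of RNA, with 63.6 and 28.6 RPM of Pol II per kilobase. HETA, the main building block of fly telomeres, held 5.01 RPKM and 15.5 RPM per kilobase, and TAHRE 1.36 RPKM and 8.36 RPM per kilobase. The ratios were 1.55 for TART (1.504 to 1.607), 0.323 for HETA (0.287 to 0.364) and 0.163 for TAHRE (0.142 to 0.187), so the intervals of all 3 were apart. Reads shared between TART and TART_B1 may be counted in either.

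Against the RNA of genes, most TE families were low in the control cells. The median over entries was 3.95 RPKM, while the median of the 10840 gene entries above 0 was 12.5 RPKM. COPIA lay above 99.97% of these gene entries and Gypsy1 above 99.95%. GYPSY, at 34.7 RPKM, lay above 73.0% of them and R1 above 27.7%.

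Several families known as targets of the somatic pathway held Pol II in the control. GYPSY ranked second in Pol II, with 3793 RPM (543 RPM per kilobase), and its RNA percentile was 12.6 points lower. MDG1 held 588 RPM and 5.45 RPKM, -27.2 points, DM297 851 RPM and 20.1 RPKM, and DM412 423 RPM and 4.55 RPKM. BLOOD held the most RNA of them, at 104 RPKM beside 1190 RPM. ZAM, GTWIN, IDEFIX and DM176 held 2.04, 1.41, 17.98 and 18.1 RPKM beside 137, 169, 296 and 756 RPM. Not counted among these targets here, the LINE-type elements FW, DOC and I held 19.95, 15.3 and 21.6 RPKM beside 2282, 1521 and 826 RPM. None of these 12 families was past the 30-point limit in the control, whereas ROO and STALKER4, described above, were.

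The same measure was taken in the knock-down libraries, as deposited and not per kilobase. Entry lengths are the same in every library, so the part of a gap that goes with length recurs in each. POGON1, whose place depends on the length term, was at 57.0, 61.6 and 58.9 points in Piwi, Mael and CG3893. Ranks within an assay were also close across conditions, so the counts below are a description and no separate check. Of the 16 entries ranked higher in Pol II in the control, 13 were past 30 points in Piwi, 12 in Mael and 13 in CG3893. In those libraries 14, 13 and 14 of all entries were. Of the 16 ranked higher in RNA, 15, 14 and 14 were past it in the same order of libraries, of 16, 16 and 15 in all. R1 was at -58.3, -63.6 and -64.9 points in Piwi, Mael and CG3893, G at -62.9, -66.2 and -68.2, and PEN1 at 84.1, 82.8 and 84.8. BS dropped out in Mael alone, at -23.2 points, and STALKER4, ROO and ROVE in all 3 knock-downs. STALKER4, a Ty3/gypsy-type element, went from -36.4 points to -4.64, -3.97 and -17.9 in the same order, ROO from -30.5 to -23.8, -15.9 and -23.2, and ROVE from -31.1 to -23.8, -17.2 and -22.5. On the opposite side TRANSIB3 was under the limit in all 3, TOM in Mael (23.8) and MARINER2 in CG3893 (29.1).

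**Figure D5:**
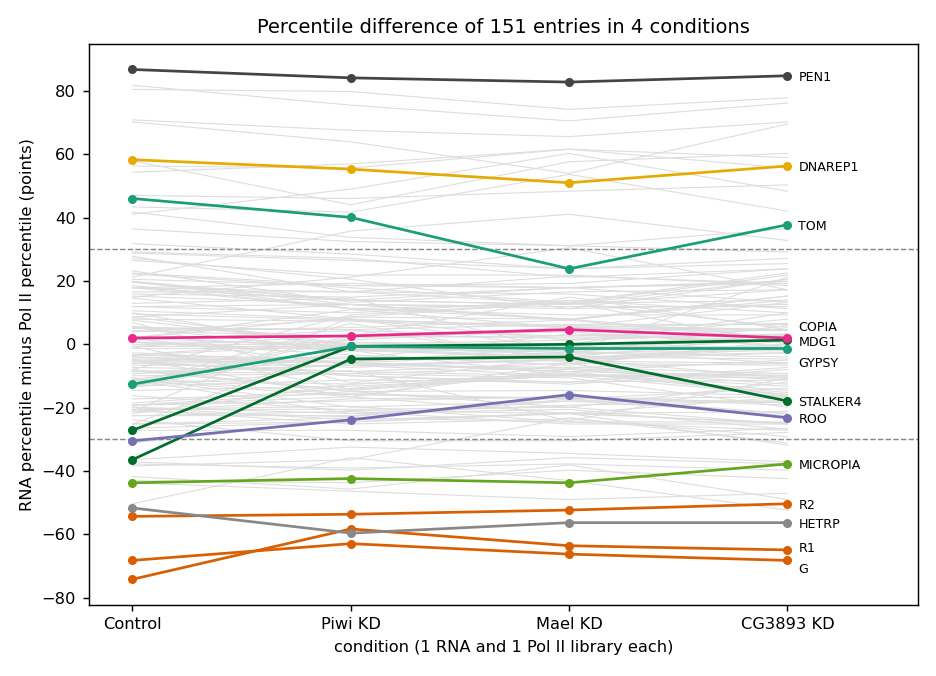
RNA percentile minus Pol II percentile (points) of the 151 entries in the control and in the Piwi, Mael and CG3893 knock-downs (KD), each from 1 RNA and 1 Pol II library; grey lines are all entries, coloured lines the named ones and dashed lines the 30-point limit. R1, G, R2 and HETRP remain below the lower limit in all 4 conditions, whereas STALKER4 and MDG1, outside 20 points of 0 in the control, lie within it in each knock-down.

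By level, the 10 entries with Pol II but little RNA were at or above the Pol II median in all 3 knock-down libraries (10 of 10 in each, against 50.3% of all entries). Their RNA was under 1 RPKM for 7 in Piwi, 8 in Armi, 7 in Mael and 7 in CG3893, where 24.5%, 25.8%, 25.2% and 24.5% of all 151 entries were, and for 5 in HP1a, where 17.9% were. The 13 entries with RNA but little Pol II were at or above 10 RPKM in 13, 12, 13, 13 and 13 cases in Piwi, Armi, Mael, CG3893 and HP1a, where 41.1%, 39.7%, 47.7%, 43.0% and 56.3% of all entries were. They were under the Pol II median in 12, 12 and 13 cases in Piwi, Mael and CG3893, as were 49.7% of all entries in each. Both groups were chosen on control levels, and ranks within an assay were close across conditions, with rho of 0.99 for Pol II. Most of these counts were thus close to given in advance and are no separate check of the groups.

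The ratio was also taken in each knock-down, from its own RNA and Pol II libraries. Over the 138 entries with reads in all 8 libraries of the 4 conditions, its median was 0.136 in the control and 0.204, 0.269 and 0.186 in the knock-downs, in the order Piwi, Mael and CG3893 used from here on. In the control 15 entries were at 1 or above, and 24, 30 and 22 in the knock-downs. MDG1 went from 0.0652 to 1.95, 2.74 and 1.40. GYPSY went from 0.0639 to 0.675, 0.688 and 0.336. DM297 went from 0.156 to 1.14, 2.77 and 1.10, and STALKER4 from 0.0427 to 0.414, 0.497 and 0.173. For these families the RNA was more above control than the Pol II was, in each of the 3 knock-downs.

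MICROPIA lay between 0.0131 and 0.018, R2 between 0.000965 and 0.00254 and HETRP between 0.00114 and 0.00215 over the 4 conditions. The R2 ratios rest on 6 to 16 RNA reads. Other entries of low ratio were higher in each knock-down. R1 went from 0.00127 to 0.00507, 0.00430 and 0.00234, and BS from 0.0184 to 0.0301, 0.102 and 0.0372. G went from 9.8e-05 to 0.00045, 0.00024 and 0.00050, on 1 to 6 RNA reads. DMRT1B was at 0.0175 in the control and at 0.0217, 0.0265 and 0.0149. COPIA, with the highest ratio of the TE families in the control, was at 12.2 in the control and at 11.7, 14.2 and 8.90 in the knock-downs, and Gypsy1 at 0.771 and at 0.818, 0.889 and 0.997. TART was at 1.55 and at 1.41, 1.29 and 1.33. By class, the median went from 0.0948 in the control to 0.248, 0.296 and 0.183 over 20 errantivirus-type entries and from 0.173 to 0.415, 0.474 and 0.384 over 32 other Ty3/gypsy-type entries. In DNA transposons and helitrons it was 0.308 in the control and 0.305, 0.452 and 0.328 in the knock-downs, and in non-LTR elements 0.0723 and 0.113, 0.167 and 0.0933. As each ratio rests on 2 single libraries, the variation between libraries could not be measured for these shifts. No counting interval is given for the knock-down ratios.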

How the data were processed

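The authors deposited RPKM per TE entry for RNA and RPM per TE entry for Pol II, per the file headers. Build dm3, TopHat2 2.0.7, Cufflinks 2.0.2, Bowtie2 2.0.0 and cutadapt are named in the submitters' processing notes. How reads matching several families were counted is not given in the sources used here.

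Library totals, entry lengths and read numbers were recovered from the values. All values above 0 came out whole, within 0.002 reads in control RNA and 0.01 in control Pol II. On simulated libraries, 29 of 30 RNA totals, 20 of 20 Pol II totals and 98.0% of 739 lengths were recovered. Lengths were used for entries with reads in at least 4 RNA libraries. The recovery is a best fit, so no count test was run.

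Ranks were percentiles over entries above 0 in a control library, with ties at their mean. Ratio intervals are exact binomial (Clopper-Pearson), level intervals exact Poisson, both at 95%; a count of 0 was bounded at 3 reads. Without molecular identifiers, reads are not independent molecules. Python 3.11.15, SciPy 1.17.1 and pandas 2.3.3 were used.

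Named entries are the 10 widest percentile differences each way with at least 10 reads, the 5 highest of each assay, 14 families in any case and the extremes of each class; the others named were chosen after their values were seen. The comparison, classes, limits and names were chosen with earlier results of these data known. Alternatives were other limits, pseudocounts, entry filters and Pol II per kilobase.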

Additional observations from a re-analysis of the deposited data

How the results depend on the processing

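No paired analysis was possible because each group holds 1 library, and for the same reason no library could be left out. Spearman's rho of 0.54 between RNA and Pol II was 0.57 with Pol II per kilobase, 0.43 over entries with at least 10 reads in both, 0.62 over entries in a TE list, 0.52 without COPIA and Gypsy1, and 0.52, 0.53 and 0.52 with Pol II of the Piwi, Mael and CG3893 libraries. Restricted to entries of at least 1000 bases, a choice made after seeing the data, it was 0.62. Pearson's r of 0.51 went to 0.56, 0.43, 0.61, 0.45, 0.49, 0.50, 0.49 and 0.60 in the same order.

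Entries ranked higher in Pol II numbered 32 at 20 points and 9 at 40, and those higher in RNA 26 at 20 points. Entries with Pol II but little RNA numbered 6 with RNA under 0.5 RPKM, 16 under 2 RPKM and 28 with Pol II of at least 10 RPM. Those with RNA but little Pol II numbered 5 with Pol II under 10 RPM. None of the other 15 alternatives moved its count by over 1.5 times.

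Class medians of log2(RPKM + 1) minus log2(RPM + 1), relative to all entries, moved with every setting. In the order as reported, pseudocount 0.1, pseudocount 5 and Pol II per kilobase, they were -1.64, -1.14, -1.58 and -0.93 for Bel/Pao-type, 2.34, 3.09, 1.80 and 0.81 for copia-type, 1.84, 2.13, 1.92 and 0.80 for DNA transposons and helitrons, -1.41, -0.99, -1.12 and -0.31 for errantivirus-type, -1.34, -0.98, -1.19 and -0.72 for non-LTR, 0.70, 1.47, 0 and 2.53 for telomeric entries and 2.23, 2.41, 2.52 and 0.22 for entries in no TE list. The other Ty3/gypsy-type changed sign, from -0.02, -0.11 and -0.36 to 0.43 per kilobase; the cause was not tested. Depth limits the entries with few reads: the ratio of G rests on 1 RNA read and that of PEN4 on 3 Pol II reads.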
